A study of Sus scrofa with 15 samples.

Results

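The genes described here make glucose or store it as glycogen in the liver, and they were chosen by name: PC, PCK1, PCK2, FBP1, G6PC1, GYS2, PYGL, GCGR and PPARGC1A. Each was matched to the deposited gene table by its pig Ensembl symbol, and 9 of the 9 had a row among 31908 genes. The study injected male growing piglets, a Duroc x Large White x Landrace cross whose age is not given in the labels, into the peritoneum. The LPS group received lipopolysaccharide (LPS), a cell wall component of Gram-negative bacteria, at 80 μg/kg, and the CON group received sterile saline. Livers were taken 4 h later, and polyadenylated RNA was sequenced before any m6A antibody was added. There were 3 such input libraries per group, from a study of 6 piglets per group. The sources used here do not say which piglet gave which library or whether animals were pooled. The p-values therefore set the group difference against the spread between these libraries, which may not be that between piglets.

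In gluconeogenesis the liver turns lactate, alanine, serine and glycerol into glucose. Pyruvate carboxylase (PC) and phosphoenolpyruvate carboxykinase, cytosolic (PCK1) or mitochondrial (PCK2), bypass the irreversible last step of glycolysis. Fructose-1,6-bisphosphatase (FBP1) bypasses a further one, and the catalytic subunit of glucose-6-phosphatase (G6PC1) frees the glucose, whether it was newly made or came from glycogen. Liver glycogen synthase (GYS2) lengthens glycogen and liver glycogen phosphorylase (PYGL) breaks it down. Glucagon acts through its receptor (GCGR) and cyclic AMP, and the coactivator PGC-1α (PPARGC1A) helps switch on the gluconeogenic enzymes in fasting.

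Library totals were 5927348 to 10351491 counts for CON and 4348478 to 19967417 for LPS. Hepatocyte markers had a summed level of 54948 to 73992 CPM (counts scaled to library size by edgeR's TMM method) after saline and 50006 to 103980 after LPS over 8 of 8 genes, of which SERPINA1 had 1.23 to 7.20 CPM and the other 7 at least 103 CPM in each library. The sum hides unlike members, since albumin (ALB, 20307 to 38011 CPM after saline and 12381 to 19676 after LPS) and the asialoglycoprotein receptor ASGR1 (263 to 344 and 103 to 175) lay below the CON libraries in each LPS library, and the acute phase protein fibrinogen beta (FGB, 8098 to 12715 and 14561 to 44959.6) lay above them. Neutrophil markers, 5 of a list of 8, summed to 12.5 to 22.4 CPM after saline and 73.0 to 307 after LPS. Kupffer cell or macrophage markers, 8 of 9, summed to 1290 to 2336 and 987 to 1513 CPM. Among them MRC1 (39.1 to 49.6 and 12.0 to 29.6), TIMD4 (36.2 to 52.8 and 16.2 to 30.6) and VSIG4 (25.4 to 36.1 and 11.3 to 20.3) lay below the CON libraries in each LPS library. The groups overlapped in CD163, MARCO, CD68, C1QA and C1QB. Red blood cell markers, 4 of 5, summed to 71.3 to 99.2 and 90.0 to 327 CPM. No marker with a row was at 0 in the 6 libraries together, and the part of other cell types in the results below was not tested. LPS replicate 2 stood nearer to the CON libraries than the other LPS libraries did, with a Pearson correlation of log2 CPM across genes of 0.923 to 0.945 with the CON libraries against 0.837 to 0.899 for LPS replicates 1 and 3. In bulk RNA, fewer hepatocytes and less RNA per hepatocyte cannot be told apart.

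None of the 9 genes passed the edgeR test with all libraries and the filter on low counts. Log2 fold changes (LPS against CON) were negative in 6 of the 9, or 66.7%, beside 49.5% of all tested genes. PYGL and PCK2 had the lowest, at -1.39 and -1.26, followed by GCGR, G6PC1, FBP1 and PC, and those of PCK1, GYS2 and PPARGC1A were above 0. All 9 passed the filter on low counts. Among 12774 tested genes, edgeR's quasi-likelihood test called 0.0548% higher and 0% lower (a change above 1.5-fold with an adjusted p below 0.05). It called 0 of the 9, as did DESeq2, which called 2.02% of all tested genes higher and 1.14% lower, and limma-voom, which called 0.0313% higher and 0.0157% lower. At an unadjusted p below 0.05, the edgeR fit placed 3 of the 9 lower (PYGL, PCK2 and GCGR) and 0 higher, beside 6.33% of all tested genes lower and 6.18% higher. The LPS libraries lay below the CON libraries without overlap in 4 of the 9 (PYGL, PCK2, GCGR and G6PC1), beside 9.8% of all tested genes, and above them in 0 of the 9, beside 6.52%. The median log2 fold change of the 9 was -0.74, and that of all tested genes was 0.01. Without LPS replicate 2, edgeR called 2 of the 9 lower (PYGL and PCK2), beside 3.45% of all tested genes lower and 3.76% higher. Without LPS replicate 1 it called 0 of the 9, beside 0% of all tested genes lower and 0.00733% higher. The median of the 9 was -1.06 without LPS replicate 2 and -0.48 without LPS replicate 1.

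**Figure D1:**
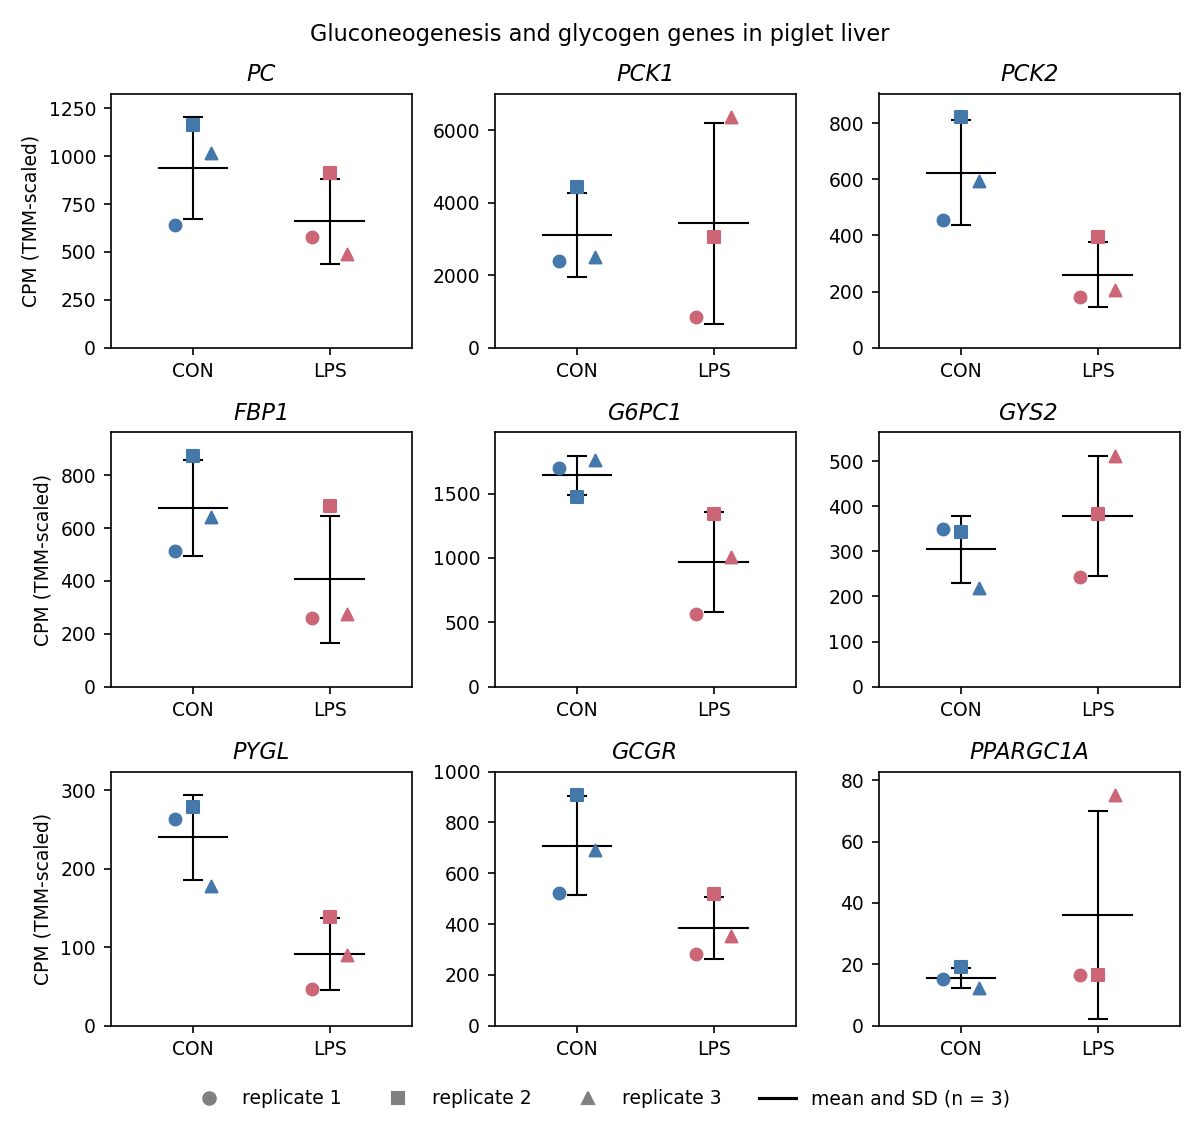
Level of each gene in each library, in TMM-scaled CPM on a linear axis that starts at 0. Points are libraries (circle, square and triangle for replicates 1, 2 and 3), the long bar is the mean and the whiskers are the SD of 3 libraries; the PYGL, PCK2, GCGR and G6PC1 points of the LPS group all lie below those of the CON group, and PPARGC1A is high in LPS replicate 3 alone.

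Expressed per kilobase of the gene's exons (RPKM, from the same scaled counts), the CON levels of the 9 genes spanned a wide range. PCK1 had the highest level at 715 ± 265 RPKM (mean ± SD, n = 3), followed by G6PC1 at 419.9 ± 38.9. FBP1, PC and PCK2 came next, at 318 ± 86, 266 ± 76 and 261 ± 78, and their ranges overlapped one another. GYS2 at 88.8 ± 21.4 and GCGR at 73.9 ± 20.2 also overlapped. PYGL stood lower, at 22.7 ± 5.1, and PPARGC1A lowest, at 1.43 ± 0.31. G6PC1 overlapped with FBP1, whereas PCK1 lay above G6PC1, PCK2 above GYS2, GCGR above PYGL and PYGL above PPARGC1A in every CON library. In the LPS group the order was the same except that GYS2, at 110.6 ± 38.9 RPKM, came before PCK2, at 108 ± 48. There PCK1, G6PC1, FBP1, PC and GYS2 each overlapped with the next in order, and PYGL, at 8.68 ± 4.35, overlapped with PPARGC1A, at 3.30 ± 3.11. PCK2 lay above GCGR, and GCGR above PYGL, in every LPS library. The order depends on the deposited exon lengths. GCGR (9581 bases) had a mean of 708 CPM in the CON group, above FBP1 (2123 bases) at 676 and PCK2 (2395 bases) at 624.

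PC, which makes oxaloacetate from pyruvate in the mitochondrion (ENSSSCG00000012926, chromosome 2 from 5518430 to 5587797), was measured at 643, 1161 and 1015 CPM after saline and at 576, 911 and 490.1 CPM after LPS, in the order of replicates 1, 2 and 3, as in all series of values that follow. The groups overlapped, because LPS replicate 2 lay between CON replicates 1 and 3. The fitted log2 fold change (LPS against CON, with its standard error, SE) was -0.51 (SE 0.37, adjusted p = 0.612 by edgeR). It was -0.82 without LPS replicate 2 and -0.42 without LPS replicate 1.

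PCK1 (ENSSSCG00000007507, chromosome 17 from 57930432 to 57938896), often taken as the pace-setting enzyme of the pathway, varied more within the LPS group than between the groups. It stood at 2395, 4436 and 2496 CPM after saline and at 848, 3067 and 6383 CPM after LPS, so that the lowest and the highest of the 6 libraries were both LPS libraries. The highest LPS library had 7.52 times the level of the lowest, against 1.85 times in the CON group. The fit gave 0.14 on the log2 scale (SE 0.62, adjusted p = 0.950 by edgeR, 95% interval from -1.24 to 1.52), and 0.23 without LPS replicate 2. It turned negative (-0.66) without LPS replicate 3, under limma-voom (-0.26) and when libraries were scaled to total counts (-0.13), so no direction can be given.

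The mitochondrial enzyme PCK2 (ENSSSCG00000002009, chromosome 7 from 75187194 to 75197733) separated the groups, which PCK1 did not. Its level was 455, 824 and 594 CPM after saline. After LPS it was 182, 393 and 204 CPM, each value below the lowest CON library. The CON level was 2.40 times the LPS level in the fit, or -1.26 on the log2 scale (SE 0.40, adjusted p = 0.257 by edgeR). Without LPS replicate 2 it was called lower, at -1.69 (SE 0.40, adjusted p = 0.0282 by edgeR). Without LPS replicate 1 the value was -1.06 (edgeR adjusted p = 0.598) and PCK2 was not called. Over 13 alternative settings the adjusted p of PCK2 reached 0.688. The ratio of PCK2 to PCK1 per length was 0.337 to 0.432 in the CON libraries and 0.390, 0.233 and 0.0582 in LPS replicates 1, 2 and 3, so the groups overlapped in this ratio.

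FBP1 (ENSSSCG00000031174, chromosome 10 from 27588582 to 27623077) reached 514, 874 and 641 CPM after saline. After LPS it reached 259.7, 684 and 274 CPM. LPS replicates 1 and 3 lay well below the CON range and LPS replicate 2 lay within it. The log2 fold change was -0.74 (SE 0.44, adjusted p = 0.525 by edgeR). It became -1.34 without LPS replicate 2 (edgeR adjusted p = 0.0581), which still missed the threshold. Without LPS replicate 1 it became -0.49 (edgeR adjusted p = 0.858).

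G6PC1 (ENSSSCG00000036449, chromosome 12 from 19962934 to 19976050) was the steadiest of the 9 genes in the CON group, at 1698, 1471 and 1760.0 CPM, with a highest library 1.20 times the lowest. Values after LPS were 561, 1339 and 1006 CPM. All of these lay below the CON libraries, LPS replicate 2 by a small margin. Group means were 1643 ± 152 CPM for CON and 969 ± 390 CPM for LPS (mean ± SD, n = 3). On the log2 scale LPS differed from CON by -0.76 (SE 0.37, adjusted p = 0.447 by edgeR, 95% interval from -1.60 to 0.07). The difference was -1.06 without LPS replicate 2 (edgeR adjusted p = 0.137) and -0.48 without LPS replicate 1 (edgeR adjusted p = 0.810).

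**Figure D2:**
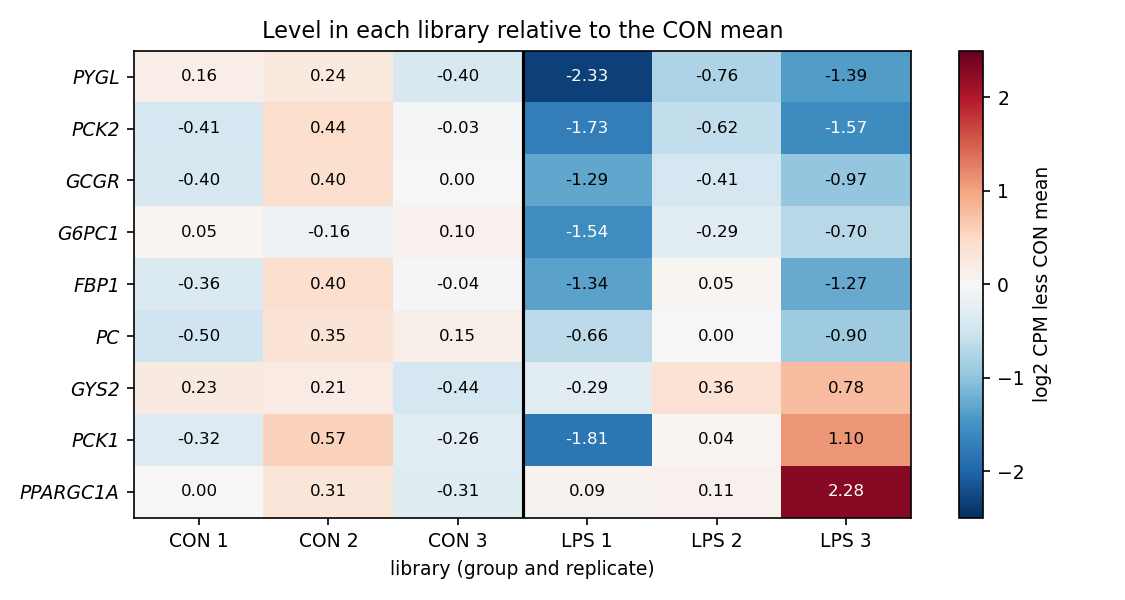
Difference of each gene's log2 CPM from its mean over the CON libraries, by library, with blue below and red above the CON mean. LPS replicate 1 is blue for most genes (lowest of the 6 libraries in 6 of the 9). LPS replicate 2 is paler, with its lowest value at -0.76 for PYGL. LPS replicate 3 is blue for PYGL, PCK2, FBP1, GCGR, PC and G6PC1 but red for PPARGC1A, PCK1 and GYS2.

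The glycogen enzymes had fold changes of opposite sign. For PYGL (ENSSSCG00000005024, chromosome 1 from 180620314 to 180719979) the values were 263, 279 and 178 CPM after saline. They were 46.7, 139 and 89.8 CPM after LPS, each below every CON library. PYGL had the lowest log2 fold change of the 9, at -1.39 (SE 0.42, adjusted p = 0.244 by edgeR), and the CON level was 2.62 times the LPS level. It was called lower without LPS replicate 2 (-1.80, SE 0.42, adjusted p = 0.0270 by edgeR) and when genes with low counts were kept (-1.41, edgeR adjusted p = 0.0214), where 1.48% of all genes were called lower and 2.28% higher. DESeq2 gave -1.35 with an adjusted p of 0.0607, and over 13 alternative settings the adjusted p reached 0.708. Without LPS replicate 1 the log2 fold change of PYGL was -1.06 (edgeR adjusted p = 0.520). Its gene model shares 81 exon bases with NIN on the same strand, and NIN had 82 to 303 counts where PYGL had 214 to 2941.

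GYS2 (ENSSSCG00000000577, chromosome 5 from 51862945 to 51916107) was at 349, 344 and 219.5 CPM after saline. After LPS the values were 244, 382 and 511 CPM, and the groups overlapped. The difference was 0.32 on the log2 scale (SE 0.37, adjusted p = 0.762 by edgeR, 95% interval from -0.50 to 1.14), or 0.32 without LPS replicate 2 and 0.06 without LPS replicate 3.

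Within a library, a ratio of genes does not depend on how libraries are scaled. The ratio of PYGL to GYS2 per length was 0.244, 0.263 and 0.263 in CON replicates 1, 2 and 3, the tightest of the 7 ratios given here. It was 0.0620, 0.118 and 0.0570 in the LPS replicates, so every LPS library, LPS replicate 2 included, had less than the lowest CON library. The means were 0.257 ± 0.011 and 0.0789 ± 0.0337 (mean ± SD, n = 3). A two-sided exact permutation test of the log2 ratios gave p = 0.1, the smallest that 3 libraries against 3 allow, and 0.7 after Benjamini-Hochberg adjustment over these 7 ratios. In the other 6 ratios, 4 of them to PCK1, the groups overlapped.

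**Figure D3:**
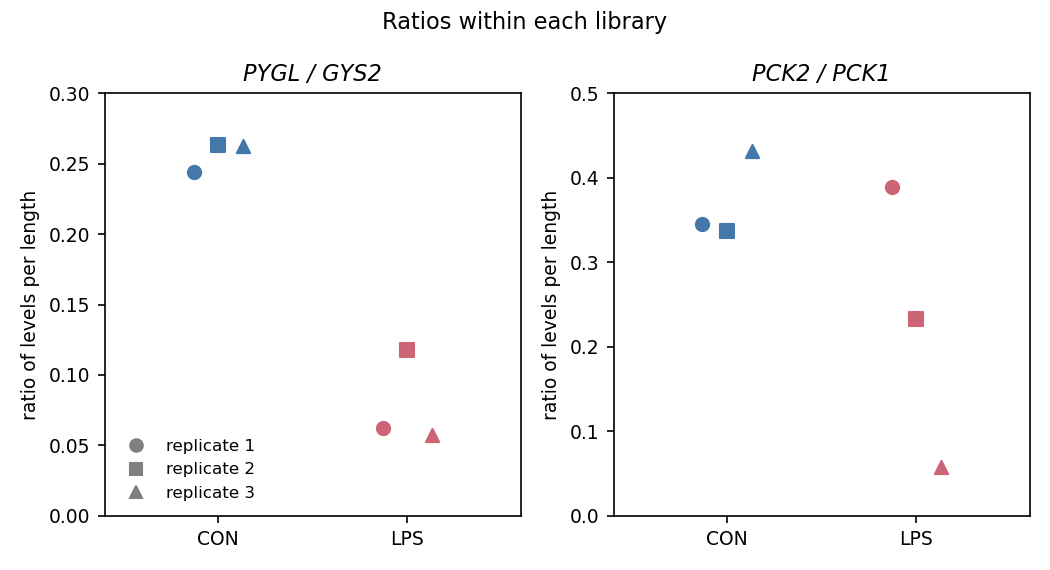
Ratio of PYGL to GYS2 (left) and of PCK2 to PCK1 (right) per gene length in each library, on linear axes from 0, with circle, square and triangle for replicates 1, 2 and 3. The LPS libraries lie below the CON libraries for PYGL to GYS2, at 0.0570 to 0.118 against 0.244 to 0.263, and overlap with them for PCK2 to PCK1.

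The glucagon receptor GCGR (ENSSSCG00000034891, chromosome 12 from 1146066 to 1157826) was found at 523, 909 and 693 CPM after saline. After LPS it was found at 282, 519.8 and 353 CPM. The groups did not overlap on this scale, but LPS replicate 2 and CON replicate 1 were close to equal, and they overlapped when libraries were scaled to total counts or by RLE, the DESeq2 method. LPS differed from CON by -0.88 on the log2 scale (SE 0.36, adjusted p = 0.364 by edgeR). The difference was -1.15 without LPS replicate 2 (edgeR adjusted p = 0.0977) and -0.69 without LPS replicate 1 (edgeR adjusted p = 0.726).

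PPARGC1A (ENSSSCG00000029275, chromosome 8 from 17841844 to 17961909) was the least abundant of the 9 and stood out in 1 library. Levels after saline were 15.3, 19.1 and 12.4 CPM. Levels after LPS were 16.4, 16.5 and 75.3 CPM, which rest on 75, 101 and 1103 counts. LPS replicates 1 and 2 lay within the CON range, and LPS replicate 3 had 4.61 times the level of the lowest LPS library. Its log2 fold change of 1.23 (SE 0.58, adjusted p = 0.431 by edgeR) was 1.58 without LPS replicate 2 (adjusted p = 0.101) and 0.10 without LPS replicate 3.

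**Figure D4:**
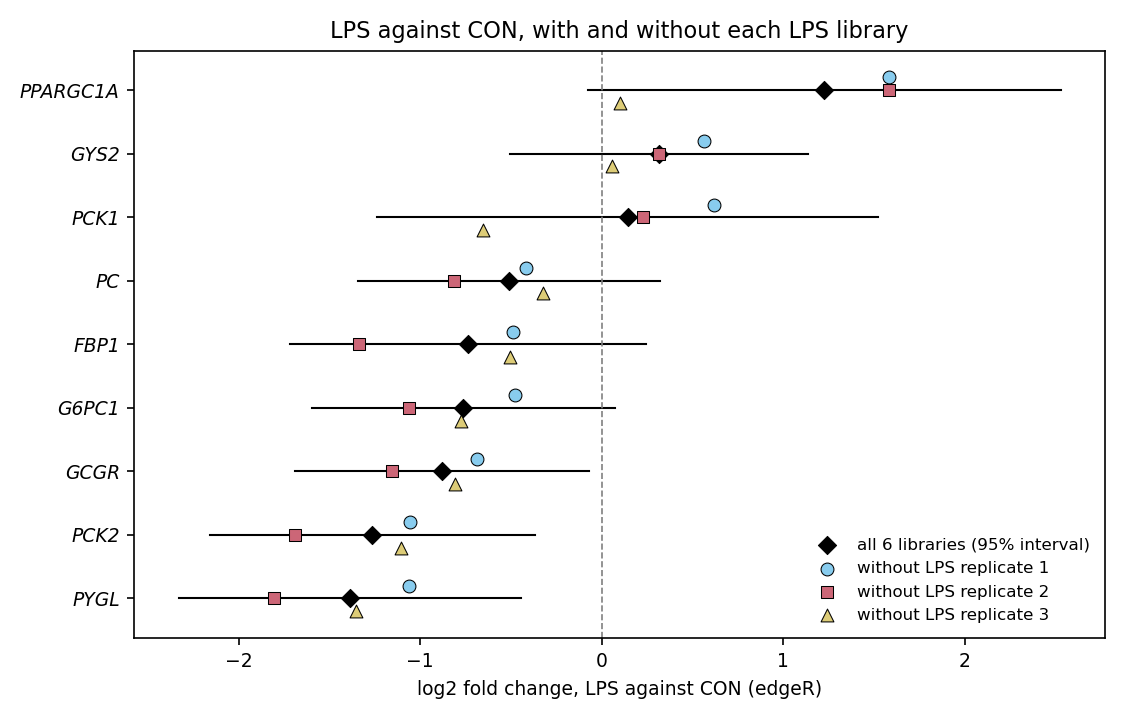
Log2 fold change of LPS against CON for each gene from edgeR. Black diamonds with 95% intervals use 6 libraries, and coloured symbols leave out LPS replicate 1, 2 or 3. PPARGC1A, GYS2 and PCK1 move towards or past 0 without LPS replicate 3. PYGL, PCK2 and FBP1 move further from 0 without LPS replicate 2 and nearer to 0 without LPS replicate 1.

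The LPS livers differed among themselves as well as from the CON livers. LPS replicate 1 had the lowest level of the 6 libraries in 6 of the 9 genes, and LPS replicate 2 had the highest level of its group in 6 of the 9. Taken over the 9 genes, the median difference from the CON mean was, in log2 units, -1.34, 0.00 and -0.90 after LPS and -0.32 to 0.35 after saline, while that of all tested genes was -0.06 to 0.03 in each library. LPS replicate 3 had the highest level of the 6 libraries for PCK1, GYS2 and PPARGC1A and the lowest for PC. The genes also differed in how alike their profiles were. FBP1 and GCGR were the most alike pair, with a root mean square difference of 0.23 between their centred log2 CPM over the 6 libraries, and PCK2 and PPARGC1A the least alike, at 1.42. Cell markers varied between the same libraries. After LPS the hepatocyte markers summed to 53548, 50006 and 103980 CPM, of which FGB gave 21935, 14561 and 44959.6. ALB had 12381, 15104 and 19676 CPM and ASGR1 had 160.7, 175 and 103 CPM in these libraries, so the markers ordered them differently. The neutrophil markers summed to 168, 73.0 and 307 CPM. Their part in the levels of the 9 genes was not tested.

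Among 10755 other tested genes with a symbol, the profile nearest to PCK1 was that of CITED2, a transcriptional coregulator, with a root mean square difference of 0.15 over the 6 libraries. BMP2, a secreted growth factor, followed at 0.15 and EXOG, a mitochondrial nuclease, at 0.19. Nearest to G6PC1 were LAPTM5, a lysosomal membrane protein of blood cells, at 0.07, ATRNL1 at 0.13 and DNAH2 at 0.14. GYS2 was most like LTBP1, which binds latent TGF-β, at 0.05, followed by RNF19A at 0.09 and TYW5 at 0.10. EXOG and ATRNL1 had 0.218 CPM each in LPS replicate 1. These likenesses are descriptions over 6 libraries, without a test.

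The other genes of glucose metabolism were taken from 4 lists of 87 genes, of which 75 were tested, 3 fell below the filter and 9 had no single row by symbol. With all libraries, edgeR and limma-voom called 0 of the 75 and DESeq2 called 3 of them, or 4%, higher (SDS and UGP2 among them), beside 2.02% of all tested genes. In the edgeR fit 13 were higher and 6 lower at an unadjusted p below 0.05, against the 6.18% and 6.33% of all tested genes given above, and the median log2 fold change of the 75 was 0.13. When LPS replicate 2 was left out, edgeR called 6 of 76 higher (SDS, UGP2, CEBPB, SIK1 and PFKFB3 among them) and 5 lower (GPD1, GPT2, MPC2, PHKA2 and PDK2). These are 7.89% and 6.58% of the 76, beside 3.76% and 3.45% of all genes tested in that fit.

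Of the 21 tested genes that feed the pathway, share its reversible steps or release glucose, 5 were higher and 2 lower at an unadjusted p below 0.05, with a median log2 fold change of 0.14. Over all tested genes, 6.18% were higher and 6.33% lower at that p. SDS, serine dehydratase, which turns serine into pyruvate, had 3.40, 6.41 and 8.60 CPM after saline against 831, 46.0 and 253 after LPS. Every LPS library exceeded every CON library. Its log2 fold change was 5.94 (SE 1.01, adjusted p = 0.0851 by edgeR). DESeq2 called SDS higher (adjusted p = 3.02e-13), as did edgeR without LPS replicate 2 (0.000503), whereas limma-voom did not (0.152), and over 13 alternative settings its adjusted p reached 0.586. The cytosolic transaminase GOT1, malate dehydrogenase MDH1, lactate dehydrogenase LDHA and enolase ENO1 had log2 fold changes of 1.08, 1.26, 1.01 and 0.90, with LPS libraries above the CON libraries throughout and edgeR adjusted p of 0.273 to 0.353. Of the 21 genes, 5 lay above the CON libraries without overlap (23.8%) and 2 below (9.52%), beside 6.52% and 9.8% of all tested genes. The genes named here were picked by their p, so their separation adds no support. GPD1, which links glycerol to the pathway, had 226, 182 and 388 CPM after saline against 72.0, 165 and 28.3 after LPS. Its log2 fold change was -1.59 (SE 0.59, adjusted p = 0.321 by edgeR), and it was called lower without LPS replicate 2 (-2.41, edgeR adjusted p = 0.0199). GPD1 was not called without LPS replicate 1 (-1.46, edgeR adjusted p = 0.658) or 3 (-1.15, edgeR adjusted p = 0.363).

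Among the 21 other tested glycogen genes, 3 were higher and 1 lower at an unadjusted p below 0.05, with a median log2 fold change of -0.05. Over all tested genes, 6.18% were higher and 6.33% lower at that p. UGP2, which makes the UDP-glucose used by glycogen synthase, had 262, 181 and 224 CPM after saline against 494, 339 and 939.5 after LPS. The groups did not overlap, and the log2 fold change was 1.41 (SE 0.41, adjusted p = 0.223 by edgeR). Of the 21 genes, 2 lay above the CON libraries in this way (9.52%), beside 6.52% of all tested genes. UGP2 was picked by its p, so its separation adds no support. DESeq2 called UGP2 higher (1.45, adjusted p = 0.0325), whereas limma-voom did not (1.29, adjusted p = 0.2315). Over 13 alternative settings its adjusted p reached 0.688. GSK3A, a kinase that restrains glycogen synthase, and PHKG2, the liver catalytic subunit of phosphorylase kinase, had log2 fold changes of 0.86 and 0.85 (edgeR adjusted p of 0.326 and 0.368). For the branching enzyme GBE1 the log2 fold change was -0.96 (SE 0.38, adjusted p = 0.353 by edgeR).

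Of 24 tested genes of hormonal and transcriptional control, 2 were higher and 0 lower at an unadjusted p below 0.05, and the median log2 fold change was 0.17. Over all tested genes, 6.18% were higher and 6.33% lower at that p. CEBPB and ESRRA are named because they passed it. CEBPB, a transcription factor of the acute phase that also binds the PCK1 promoter, had 167, 338 and 236 CPM after saline against 738, 228 and 741 after LPS. LPS replicate 2 lay within the CON range. CEBPB differed by 1.20 on the log2 scale (SE 0.48, adjusted p = 0.353 by edgeR). It was called higher without LPS replicate 2 (1.59, edgeR adjusted p = 0.0308). Without LPS replicate 1 (0.99, edgeR adjusted p = 0.692) or 3 (0.98, edgeR adjusted p = 0.463) it was not called. The nuclear receptor ESRRA, a partner of PGC-1α, had 12.9, 21.9 and 27.1 CPM after saline against 70.9, 42.7 and 21.0 after LPS. LPS replicate 3 lay within the CON range. Its log2 fold change was 1.12 (SE 0.47, adjusted p = 0.368 by edgeR), and 0.63 without LPS replicate 1.

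The 9 genes listed for the glucose-using side include regulators of opposite action, PDK2 among them. Their counts and median therefore give no direction for glucose use. At an unadjusted p below 0.05, 3 were higher and 3 lower, beside 6.18% and 6.33% of all tested genes. The median log2 fold change of the list was -0.02. PFKFB3 and PFKFB2, which make the fructose-2,6-bisphosphate that activates glycolysis and inhibits FBP1, had log2 fold changes of 3.12 and 1.14 (edgeR adjusted p of 0.268 and 0.294). The value of PFKFB3 rested on LPS replicate 3, whose 132 CPM compare with 15.5 and 4.74 in the others of its group, and leaving it out gave 0.78. Liver pyruvate kinase PKLR, pyruvate dehydrogenase kinase PDK2 and the liver bifunctional enzyme PFKFB1 had log2 fold changes of -0.90, -1.41 and -1.95, and their LPS libraries all lay below the CON libraries (edgeR adjusted p of 0.268 to 0.347). Of the 9 genes of this list, 3 lay below the CON libraries without overlap and 1 above, beside 9.8% and 6.52% of all tested genes. PKLR, PDK2 and PFKFB1 were picked by their p, so their separation adds no support. PFKFB1 rested on 2 to 40 counts per library.

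**Figure D5:**
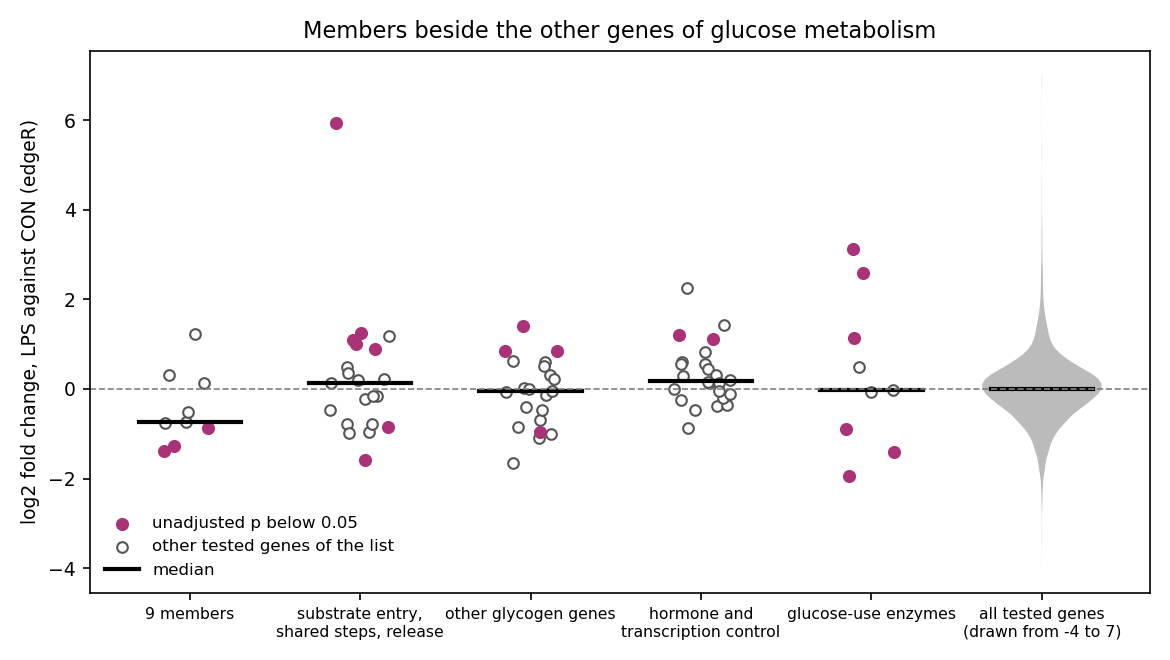
Log2 fold change of LPS against CON (edgeR) for the 9 genes, for the tested genes of the 4 other lists and, as a grey density, for all 12774 tested genes. Filled points have an unadjusted p below 0.05 and bars are medians, at -0.74 for the 9 genes and between -0.05 and 0.17 for the other lists; the highest point is SDS at 5.94.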

How the data were processed

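Input RNA libraries of CON and LPS livers were compared, with 3 per group. The authors deposited raw counts of reads per Ensembl pig gene with exon coordinates and length. The submitters' processing notes name cutadapt 1.9.3, HISAT2 and the builds galGal6 and hg38, neither of which is a pig build. The counting program and its handling of strand and of reads shared by paralogs (PCK1 and PCK2, PYGL and PYGM) are not given in any source used here. Of 13685 symbols compared, 99.92% overlap the RefSeq Sscrofa11.1 gene of the same name, and coordinates are those of the deposited table. CON replicates 1 and 2 have 2 sequencing entries each and 1 column each. Unmapped sample columns numbered 0.

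The test was that of edgeR 4.0.16 under R 4.3.3 (filterByExpr with a minimum count of 10, TMM, robust glmQLFit, glmQLFTest), and p-values were adjusted by Benjamini-Hochberg over all 12774 tested genes. Calls needed a change above 1.5-fold with an adjusted p below 0.05. The standard error is the log2 fold change over the square root of the test statistic, and 95% intervals use the same fit. RPKM is TMM-scaled CPM per kilobase of the deposited length. DESeq2 1.42.0 and limma 3.58.1 were alternatives, with other scalings and filters, the replicate number as a block and each library left out. The fits were tested on simulated data.

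The 9 genes, the lists and the ratios were chosen with earlier results of these data known. Genes named from a list are those past an unadjusted p of 0.05 with all libraries, up to 6 per list. Exceptions are GAPDH, those marked as singled out, and those named as called without LPS replicate 2, PHKA2 among them. The m6A-IP libraries were not analysed here. Results for 1 named gene of the lists, and an 8th ratio, which used it, are left out, so the adjustment of the ratios covers 7 of 8. Markers of endothelial cells, T and NK cells, B and plasma cells, cholangiocytes and stellate cells summed to 218 to 295, 102 to 126, 18.7 to 69.6, 7.66 to 12.0 and 813 to 1166 CPM in the CON group, and to 155 to 264, 51.9 to 117, 11.8 to 27.6, 20.5 to 32.5 and 634 to 1325 in the LPS group.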

Additional observations from a re-analysis of the deposited data

How the results depend on the processing

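Of 117 values of the 9 genes under 13 alternative settings, 109 kept their direction and their side of the threshold, 3 were called only in the alternative (PYGL and PCK2 without LPS replicate 2, and PYGL without the filter on low counts) and 5 changed sign, all of them PCK1. The log2 fold change of PCK1 was -0.13 with total counts, -0.26 in limma-voom, -0.25 with the replicate block, -0.02 without CON replicate 1 and -0.66 without LPS replicate 3. The cause was not tested. Over the fits that leave out 1 library, PCK1 ranged from -0.66 to 0.62, NR4A1 from -0.72 to 3.06, IGFBP1 from -0.78 to 1.83 and PYGM from -0.030 to 0.50, each lowest and negative without LPS replicate 3. The count of the 9 called lower was 1 with no filter on low counts and 0 to 2 over the fits that leave out 1 library. The count lower at an unadjusted p below 0.05 was 1 to 5 over those fits (1 without CON replicate 2, 5 without LPS replicate 2). The count with no overlap was 3 to 6, with 6 without LPS replicate 2, where 22.7% of the tested genes lay below the CON libraries. Settings for the last 2 counts, and for genes outside the 9, were chosen after seeing the data.

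Over all genes, edgeR called 7 higher and 0 lower. The counts were 8 and 1 with RLE factors, 11 and 1 with total counts, 536 and 349 with no filter, 0 and 0 with at least 10 counts in every library, 258 and 146 in DESeq2, 4 and 2 in limma-voom, and 0 to 512 and 0 to 470 when 1 library was left out, the highest without LPS replicate 2. The median of all tested genes was -0.12 with total counts. With the replicate block the counts were 42 and 9, and 0 of the 9 genes were called. Samples that share a number deviated from their group means with correlations of -0.24, 0.22 and 0.03 across genes. Samples with unlike numbers gave -0.25 to 0.22. Deviations from the mean of 3 libraries are bound to one another, so these values cannot exclude a pairing. The numbers were not taken to pair the samples, because the study describes an unpaired comparison. Depth limits PPARGC1A most, with 75 counts in LPS replicate 1.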

Other observations

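The genes in this paragraph were singled out after their values were seen. SLC2A2, the glucose transporter of hepatocytes, had 142, 149 and 80.4 CPM after saline against 34.9, 120 and 60.7 after LPS (log2 fold change -0.78, edgeR adjusted p = 0.525). PPP1R3C, which targets a phosphatase to glycogen, had 34.1, 23.1 and 92.5 CPM after saline against 26.8, 18.7 and 3.004 after LPS (-1.65, adjusted p = 0.416). NR4A1, an orphan nuclear receptor, had 5.18, 15.6 and 4.35 CPM after saline against 3.92, 5.89 and 108 after LPS. IGFBP1, which binds insulin-like growth factors, had 855, 2515 and 414 CPM after saline against 503, 958 and 5274 after LPS. SIK1, a salt-inducible kinase, had 159.6, 46.5 and 437 CPM after LPS and 52.9 to 126 after saline. GPT2, mitochondrial alanine transaminase, and MPC2, a subunit of the mitochondrial pyruvate carrier, were called lower by edgeR without LPS replicate 2 (-3.08 and -1.75, adjusted p of 0.0251 and 0.0311), and not with all libraries (-0.97 and -0.95, adjusted p of 0.718 and 0.486). GPT2 had 159, 610.4 and 168 CPM after saline against 48.0, 403 and 25.9 after LPS, and without CON replicate 2 its log2 fold change was -0.04.

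The row for PYGM, also singled out after its values were seen, is that of the muscle isoform of glycogen phosphorylase. It had 25.5 to 39.7 RPKM after saline and 28.6 to 56.6 after LPS, where PYGL had 16.9 to 26.4 and 4.42 to 13.1. The deposited lengths were 7229 bases for PYGM and 10563 for PYGL. In CPM both genes overlapped after saline, at 184 to 287 for PYGM and 178 to 279 for PYGL. After LPS they had 207 to 409 and 46.7 to 139 CPM. How reads common to both genes were counted is not given in any source used here. The row with the symbol GAPDH, a gene of the shared steps, had under 1 CPM in each library.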
